A study of Homo sapiens with 9 samples.

Results

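The genes described here are RET, NTRK2, NTRK3, NGFR, GFRA1, GFRA2 and GFRA3, which encode receptors and co-receptors for neuronal growth factors. Their accessible regions were the rows of the count table whose centre lay within the GRCh38 span of a member gene or within 50 kb of either end. This gave 111 regions of 148797. A region counted as a gene-end region when its centre lay within 1 kb of either end of its gene, which held for 5 regions, and the other 106 were kept apart. The assay was ATAC-seq, which reads open chromatin from the places where the transposase Tn5 can cut and tag DNA. The cells were SK-N-BE(2)c, an established line of human neuroblastoma. Each group received 100 nM of an antisense oligonucleotide with Lipofectamine 2000 for 48 h. ASO2 and ASO10 target the long non-coding RNA NESPR, NCA is the negative control, and each group had 3 libraries. All groups were therefore transfected cells of a single cell line, and the level of NESPR itself was not analysed here. The labels do not say that replicates came from separate cultures, so p-values measure only the spread between these libraries, which may be technical.

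RET is the receptor tyrosine kinase for the ligands of the GDNF family. These ligands first bind a membrane-anchored co-receptor: GFRA1 for GDNF, GFRA2 for neurturin and GFRA3 for artemin. The complex then brings RET molecules together and switches on their kinase. NTRK2 and NTRK3, the proteins TrkB and TrkC, are the receptor tyrosine kinases for BDNF and neurotrophin-3. NGFR, the protein p75NTR, binds all neurotrophins and carries no kinase. In neuroblastoma these receptors are studied for their roles in survival and in differentiation into neuron-like cells.

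Total counts per library ranged from 7293565 to 10948569. The labelled cell type was checked by counts at gene ends. Of 6 adrenergic neuroblastoma genes, 5 had a gene-end region, at 4.73 to 57.1 CPM (counts per 1000000 of the TMM-scaled library), while TH, tyrosine hydroxylase, had none. Of 7 markers of other cell types, 1 had a gene-end region, the endothelial gene PECAM1 at 4.17 CPM, and the leukocyte marker PTPRC had none. Away from gene ends, the 6 adrenergic genes held 29.2 to 118 CPM and the 6 tested markers of other cell types 12.1 to 83.4. These ranges overlapped, so this class did not separate the cell types. Of the 6 markers of other cell types, 1 was called for ASO2 against NCA, beside 8.23% of all protein-coding genes summed in this way. This was PTPRC, higher under ASO2 by 0.47 ± 0.08 on the log2 scale (SE, adjusted p = 5.1e-07 in edgeR's quasi-likelihood test), while the median of the 6 was -0.18 and the other leukocyte marker, CD3E, was at -0.19 (adjusted p = 0.49). Of the 6 adrenergic genes, 1 was called in that comparison, TH, which was lower at -0.30 ± 0.10 (adjusted p = 0.043), while the median of the 6 was -0.05 and ISL1 was at 0.28 (adjusted p = 0.13). For ASO2 against ASO10, 1 marker of each set was called, PTPRC at 0.33 (edgeR adjusted p = 0.00075) and GATA3 at -0.22 (adjusted p = 0.027). Over all genes this share was 16.8%. The part of these marker differences in the results below was not tested.

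RET held 19 regions, NTRK2 21, NTRK3 29, NGFR 8, GFRA1 8, GFRA2 17 and GFRA3 9. RET was the densest locus at 12.4 regions per 100 kb of window, and GFRA1 the sparsest at 2.52. NTRK3 and GFRA1 had no region within 1 kb of either end, and the other 5 genes had 1 each. The windows of NTRK2, NTRK3, NGFR and GFRA2 held no other protein-coding gene. The RET window reached CSGALNACT2, whose end coincides with the strongest region counted for RET, the GFRA1 window reached CCDC172, and the GFRA3 window reached CDC23 and CDC25C. Per kb of region, gene-end accessibility in the NCA libraries was 15.4 ± 4.86 CPM for GFRA3, 11.8 ± 1.79 for GFRA2, 10.4 ± 1.83 for RET, 8.74 ± 3.14 for NTRK2 and 5.34 ± 1.78 for NGFR (SD, n = 3 each). The libraries of each neighbouring pair in this order overlapped. Outside gene ends the order was GFRA2 at 13.0 ± 0.93 CPM per kb, GFRA3 at 11.3 ± 0.86, RET at 9.19 ± 0.22, NTRK3 at 6.44 ± 0.40, NGFR at 5.87 ± 0.50, GFRA1 at 5.31 ± 0.43 and NTRK2 at 3.93 ± 0.54. Here GFRA3 and RET, RET and NTRK3, and GFRA1 and NTRK2 did not overlap, while the other neighbours did. The strongest single region lay outside the gene ends, 26.38 kb beyond the higher-coordinate end of GFRA2, at 31.6 CPM per kb over all 9 libraries.

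Promoter sequences from RefSeq (GRCh38.p14, 250 bases before to 50 after an annotated start) matched 5 of the 7 genes, with 12 windows in all. They are shown because gene-end regions are read apart from the rest, and they show which of the starts with a window overlapped a region. Of the 12 windows, only that of RET at chr10:43076819-43077118 overlapped a region of the table, compared with 50.5% of 35116 windows in the whole promoter table and 63.3% of the 22199 windows of protein-coding genes. Several of the 12 came from the same gene. No window lay at the NTRK2 span start, on which the NTRK2 gene-end region is centred. NGFR and GFRA2 had gene-end regions but no window. The 12 windows therefore do not show that only RET was open at an annotated end. Capitals mark GC boxes, the motif GGGCGG, searched on both strands. Sequences run 5′ to 3′ on the gene's strand: RET at chr10:43076819-43077118 (plus strand), NTRK2 at chr9:84669056-84669355 (plus), NTRK3 at chr15:88256690-88256989 (minus) and GFRA3 at chr5:138274572-138274871 (minus).
RET: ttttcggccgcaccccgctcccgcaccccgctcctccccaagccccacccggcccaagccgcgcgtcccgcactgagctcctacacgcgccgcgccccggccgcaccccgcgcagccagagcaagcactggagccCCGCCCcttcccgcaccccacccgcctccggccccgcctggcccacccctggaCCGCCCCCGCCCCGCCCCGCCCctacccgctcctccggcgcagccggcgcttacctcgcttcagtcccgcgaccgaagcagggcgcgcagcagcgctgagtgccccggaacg
NTRK2: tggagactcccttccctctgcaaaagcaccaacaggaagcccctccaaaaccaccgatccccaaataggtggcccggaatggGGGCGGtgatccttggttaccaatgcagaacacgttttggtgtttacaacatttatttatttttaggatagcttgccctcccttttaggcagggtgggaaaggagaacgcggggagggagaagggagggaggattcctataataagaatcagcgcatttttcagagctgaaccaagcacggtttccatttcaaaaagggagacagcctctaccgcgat
NTRK3: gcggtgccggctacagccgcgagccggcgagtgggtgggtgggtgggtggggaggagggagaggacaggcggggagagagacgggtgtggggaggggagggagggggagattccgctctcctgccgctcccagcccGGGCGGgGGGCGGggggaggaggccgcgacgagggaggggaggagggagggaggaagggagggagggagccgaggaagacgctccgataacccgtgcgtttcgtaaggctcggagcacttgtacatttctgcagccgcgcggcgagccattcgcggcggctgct
GFRA3: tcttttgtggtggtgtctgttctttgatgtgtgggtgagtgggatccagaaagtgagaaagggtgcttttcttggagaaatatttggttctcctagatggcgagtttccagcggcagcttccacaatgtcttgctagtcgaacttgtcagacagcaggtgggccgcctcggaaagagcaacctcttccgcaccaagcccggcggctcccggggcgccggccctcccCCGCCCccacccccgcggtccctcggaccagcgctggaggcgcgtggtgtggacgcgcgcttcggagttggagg
The RET window was 78.7% G and C and held 5 GC boxes, some of them adjacent. The NTRK3 window was 72.0% G and C with 2 GC boxes, yet its nearest region lay 9503 bases away. The NTRK2 window printed here, 50% G and C with 1 box, lay 142 bases from the NTRK2 gene-end region. The GFRA3 window, 61.3% G and C with 1 box, lay 448 bases from that of GFRA3. A GC box was present in 45.0% of all promoter windows and in 56.3% of those of protein-coding genes. The RET window held no E-box (CANNTG, both strands), a motif found in 68.7% of all windows. A match to these letters is a description and does not show that a factor binds.

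Region by region, few members moved. Of the 111 regions, 92 passed the filter on low counts and 19 did not. Those left out averaged 0.34 to 1.09 CPM, and 8 of them were at NTRK2, 7 at NTRK3, 2 at RET and 1 each at GFRA2 and GFRA3. Against NCA, 2 of the 92 tested regions were called under ASO2 (adjusted p under 0.05, edgeR), both lower, 1 at RET and 1 near GFRA2. That is 2.17%, below the 5.60% called over all 119417 tested regions, of which 0.807% were called lower. No member region was called for ASO10 against NCA (background 1.09%) or for ASO2 against ASO10 (background 3.23%). DESeq2 called none in either comparison, and limma-voom called none and 1. At an unadjusted p under 0.05, edgeR counted 11 members for ASO10 against NCA, which is 12.0% compared with 10.6% of all regions, and 8 for ASO2 against ASO10, which is 8.70% compared with 14.6%. For ASO2 against NCA it counted 12, which is 13.0% compared with 16.5%, and 11 of the 12 were lower.

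Pooled over the 7 genes, the members' differences leaned downward, but not at every gene. Their median log2 fold change was -0.13 under ASO2, compared with -0.02 over all regions, and -0.20 under ASO10, compared with -0.0068. Estimates were above 0 for 37.0% of members under ASO2 and 40.2% under ASO10, and for 48.0% and 49.4% of all regions. By gene, under ASO2 this share was 17.6% at RET, 25.0% at GFRA2 and 12.5% at GFRA3. GFRA1 was at 37.5%, NTRK2 at 38.5%, NTRK3 at 59.1% and NGFR at 62.5%. Under ASO10 the same 7 genes, in that order, were at 23.5%, 31.25%, 37.5%, 50%, 46.2%, 50% and 50%. All 3 ASO2 libraries lay below all 3 NCA libraries in 12 members (13.0%, background 8.57%) and above them in 3 (3.26%, background 11.9%). Of the 12 below, 4 were at RET, 4 at GFRA2, 2 at NGFR and 1 each at NTRK3 and GFRA3. For ASO10 the counts were 11 below (12.0%, background 7.15%) and 5 above (5.43%, background 8.51%). Both comparisons use the same 3 NCA libraries. Summed over the 111 regions, the NCA libraries held 427, 430 and 432 CPM, the ASO2 libraries 383, 376 and 383, and the ASO10 libraries 416, 396 and 384. No ASO library reached the lowest NCA library, and no background share was computed for this separation. By gene, with gene ends included, only RET and GFRA2 had all ASO libraries below NCA. GFRA3 lay below NCA under ASO2 only, NGFR lay above it under ASO10 only, and NTRK2, NTRK3 and GFRA1 overlapped it. The pooled sum without RET and GFRA2 was not tested.

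**Figure D1:**
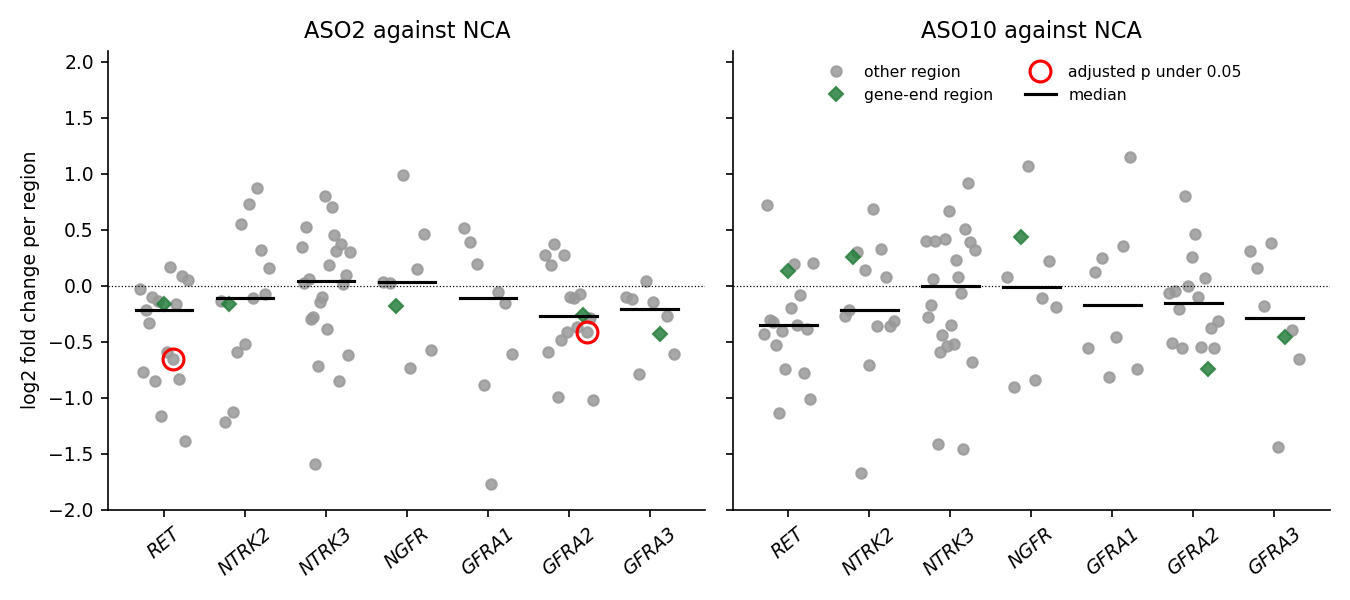
Log2 fold change of each tested region against NCA, by gene and in genomic order within a gene (y axis), for ASO2 (left) and ASO10 (right). Grey circles are regions outside gene ends, green diamonds gene-end regions, black lines the gene medians, and red rings mark the 2 regions called under ASO2, at RET and GFRA2; no region is ringed for ASO10.

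Summing the regions outside gene ends gave each gene 1 value per library. These sums were called lower for RET and GFRA2 under ASO2 and for GFRA2 under ASO10. GFRA3 was called lower under ASO2 than under ASO10. Over the 19122 protein-coding genes whose sum was tested, 8.23% were called for ASO2 against NCA (3.31% lower), 9.88% for ASO10 against NCA (1.60% lower) and 16.8% for ASO2 against ASO10 (11.9% lower). Among the members this was 2, 1 and 1 of 7 genes. In bulk libraries, fewer cells with an open region and less opening per cell cannot be told apart.

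The RET sum over its 18 other regions was 99.96, 95.9 and 95.9 CPM in the NCA libraries, 82.9, 86.6 and 74.1 under ASO2, and 93.3, 83.7 and 75.5 under ASO10. All 6 ASO libraries lay below the lowest NCA library, while the ASO groups overlapped each other. Means were 97.2 ± 2.35, 81.2 ± 6.40 and 84.2 ± 8.93 CPM (SD, n = 3 each). ASO2 was at 83.5% of NCA, with a log2 difference of -0.26 ± 0.08 (SE; adjusted p = 0.0135 in edgeR). ASO10 was at 86.5%, with a log2 difference of -0.21 ± 0.08 that did not pass the threshold (adjusted p = 0.0627, and 0.0040 to 0.41 over its alternatives). The difference between ASO2 and ASO10 was -0.06 ± 0.08 (adjusted p = 0.67).

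Where the RET difference lay depended on which regions entered the sum. The region at the end of CSGALNACT2 supplied 20.9 CPM of the NCA mean and 24.0 CPM of the ASO10 mean. Without it, in a sum chosen after seeing the data, RET fell from 76.4 ± 3.34 CPM in NCA to 59.3 ± 3.34 with ASO2 and to 60.2 ± 3.75 with ASO10 (SD, n = 3 each). Both differences then passed the threshold, at -0.36 (adjusted p = 0.00057) and -0.34 (adjusted p = 0.0050). Within the RET span alone the ASO2 difference was -0.37 (edgeR adjusted p = 0.022), while in the flanks it was -0.20 (adjusted p = 0.22). For ASO10 the values were -0.22 (adjusted p = 0.41) and -0.20 (adjusted p = 0.18). The flank sum, 59.6 CPM in NCA and 52.2 under ASO2, still held the region at the CSGALNACT2 end (20.9 and 21.9 CPM). Flanks without that region were not tested, so these values do not place the difference in the span. Leaving out NCA replicate 1 (adjusted p = 0.076) or ASO2 replicate 3 (adjusted p = 0.12) ended the ASO2 call.

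**Figure D2:**
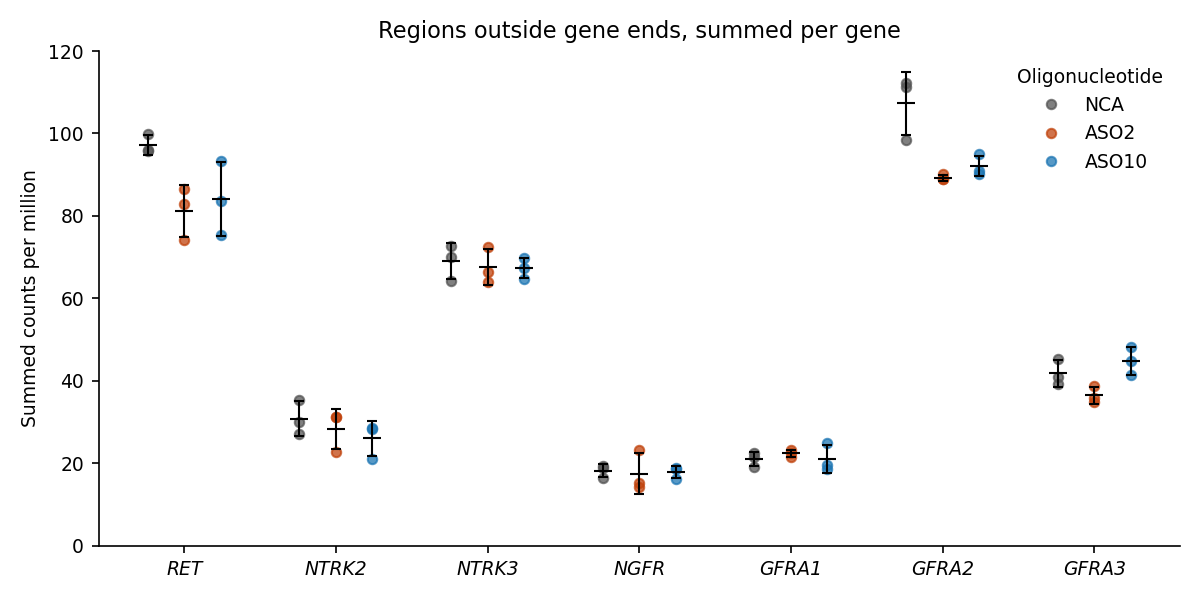
Summed CPM of the regions outside gene ends (y axis, linear from 0) for each of the 7 genes, by oligonucleotide; points are libraries, bars the mean and SD of 3. All ASO2 and ASO10 points lie below the NCA points for RET and GFRA2, and all ASO2 points lie below the ASO10 points for GFRA3 and, narrowly, for GFRA2.

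A single RET region was called on its own. It lies within the gene span at chr10:43093482-43094698, 17.02 kb from the annotated start, and exon or intron was not assigned here because the gene table gives spans only. It held 14.1, 17.2 and 14.5 CPM in the NCA libraries, 8.23, 12.8 and 7.98 under ASO2, and 10.7, 12.7 and 12.7 under ASO10. Every ASO library was below every NCA library. The ASO2 difference was -0.66 ± 0.18 on the log2 scale (SE, edgeR adjusted p = 0.0076) and the ASO10 difference -0.35 ± 0.18 (adjusted p = 0.47). The ASO2 call was lost without NCA replicate 2 (adjusted p = 0.094), ASO2 replicate 1 (0.094) or ASO2 replicate 3 (0.12). Without this region the RET sum differed by -0.20 under ASO2 and no longer passed (adjusted p = 0.11).

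Other RET regions did not pass. A flank region at chr10:43060486-43060872, 16.39 kb before the start, held 5.16, 4.31 and 4.32 CPM in NCA, 2.74, 2.20 and 2.69 with ASO2 and 1.95, 1.67 and 2.67 with ASO10. Its ASO groups did not overlap NCA, with adjusted p = 0.19 and 0.14. This region was named for the smallest p at RET for ASO10 against NCA, a choice that favours such separation. The region at chr10:43055997-43057675, 20.23 kb before the start, held 13.6 ± 0.73 CPM in NCA, 12.7 ± 0.60 with ASO2 and 9.44 ± 1.78  with ASO10 (SD, n = 3 each). Only its ASO10 libraries lay below NCA (adjusted p = 0.16). In all, 13 of the 16 tested RET regions outside the ends had a negative estimate in each comparison with NCA. The region at the CSGALNACT2 end did not share that sign, with estimates of 0.06 for ASO2 and 0.20 for ASO10, neither past the threshold.

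**Figure D3:**
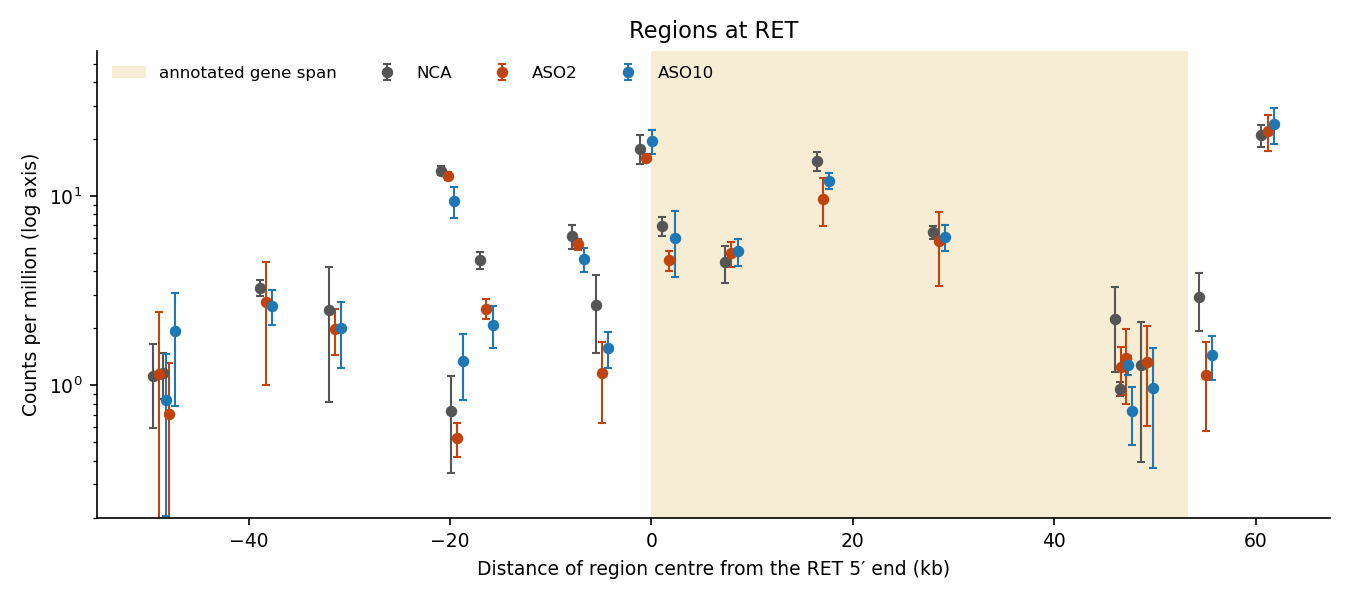
Mean CPM and SD of 3 libraries (y axis, log scale, cut at its lower limit) for each region at RET against the distance of its centre from the RET start in kb (x axis); colours are the oligonucleotides and shading is the annotated gene span. The called region at 17.02 kb has means of 15.3 under NCA, 9.67 under ASO2 and 12.0 under ASO10, while the strongest region, at the CSGALNACT2 end, has 20.9, 21.9 and 24.0.

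GFRA2 encodes the neurturin co-receptor. Its 16 regions outside the gene ends summed to 112.2, 98.4 and 111.2 CPM in NCA, 90.2, 88.9 and 88.8 under ASO2, and 94.9, 90.3 and 91.0 under ASO10. The 6 ASO libraries all lay below the lowest NCA library. The ASO2 libraries also lay narrowly below the ASO10 libraries, at -0.04 ± 0.07 (SE, edgeR adjusted p = 0.73). Relative to NCA, ASO2 was at 83.2% and ASO10 at 85.8%. The log2 differences were -0.27 ± 0.07 (SE, edgeR adjusted p = 0.0083) and -0.22 ± 0.07 (adjusted p = 0.033). The ASO2 call was lost without NCA replicate 1 (adjusted p = 0.078) or NCA replicate 3 (0.073). The ASO10 call was lost without NCA replicate 1 or 3, ASO2 replicate 1, or any 1 ASO10 library (adjusted p 0.056 to 0.17).

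The GFRA2 difference lay mainly in the flanks, and the strongest region carried much of it. That region, at chr8:21838152-21839297, overlaps no annotated gene, and the nearest other protein-coding gene, DOK2, lies 69.6 kb away. It held 40.2, 39.7 and 49.2 CPM in NCA, 30.6, 32.3 and 33.8 under ASO2, and 34.3, 33.9 and 31.6 under ASO10. ASO2 was at 74.9% of NCA, at -0.42 ± 0.12 on the log2 scale (adjusted p = 0.018, edgeR). ASO10 was at 77.3%, at -0.37 ± 0.12 (adjusted p = 0.12, and 0.0013 with loess offsets, within 0.0013 to 0.57 over its alternatives). Both groups lay wholly below NCA. The ASO2 call was lost without NCA replicate 3 (adjusted p = 0.27), ASO2 replicate 1 (0.13) or ASO2 replicate 2 (0.052).

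Sums split after seeing the data separated the GFRA2 locus. The flanks alone differed by -0.42 under ASO2 (adjusted p = 0.0010) and -0.39 under ASO10 (adjusted p = 0.0023). The gene span alone differed by -0.08 (adjusted p = 0.72) and -0.03 (adjusted p = 0.95). Without the strongest region the whole sum differed by -0.17 (adjusted p = 0.22) and -0.13 (adjusted p = 0.48). A further flank region at chr8:21666770-21667773, named after its values were seen, held 12.1 ± 1.66 CPM in NCA, 8.07 ± 1.69 with ASO2 and 8.49 ± 1.80  with ASO10 (SD, n = 3 each). Its estimates were -0.59 (adjusted p = 0.053) and -0.51 (adjusted p = 0.26). Inside the gene, chr8:21784303-21784744 held 4.91 ± 0.81 CPM under ASO2 and 7.93 ± 1.51 under ASO10, a log2 difference of -0.67 that did not pass (adjusted p = 0.11).

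**Figure D4:**
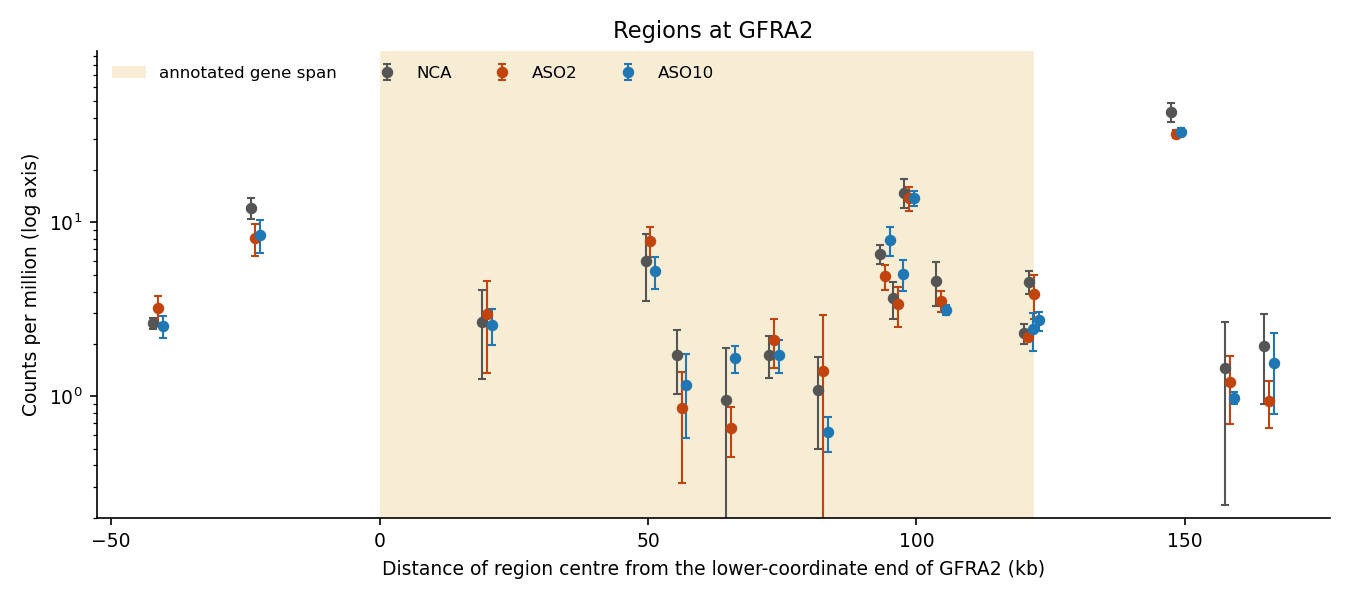
Mean CPM and SD of 3 libraries (y axis, log scale, cut at its lower limit) for each region at GFRA2 against the distance of its centre from the lower-coordinate gene end in kb (x axis), with the gene span shaded. The strongest region lies beyond the right edge of the gene, with means of 43.0 under NCA, 32.2 under ASO2 and 33.2 under ASO10.

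GFRA3, the artemin co-receptor, was the only member with a sum called between the 2 NESPR oligonucleotides, and only outside gene ends. Its gene-end sum differed by 0.03 (edgeR adjusted p = 0.96). Of its 8 other regions, 7 lay in the flanks. The 1 in the gene span went the other way, with means of 1.05 CPM under ASO2 and 0.43 under ASO10. Its 8 other regions summed to 45.3, 39.2 and 40.8 CPM in NCA, 34.9, 38.8 and 35.8 under ASO2, and 48.3, 41.4 and 44.8 under ASO10. ASO2 lay below both other groups in every library. ASO2 was at 81.4% of ASO10, a log2 difference of -0.29 ± 0.11 (SE, edgeR adjusted p = 0.035). Against NCA the differences were -0.19 ± 0.11 for ASO2 (adjusted p = 0.27) and 0.10 ± 0.10 for ASO10 (adjusted p = 0.61). Much of the difference between the oligonucleotides sat in the region at the end of CDC23, chr5:138212935-138213853, a gene of the anaphase-promoting complex. That region held 17.4 ± 1.80 CPM in NCA, 16.2 ± 1.32 with ASO2 and 21.6 ± 1.55  with ASO10 (SD, n = 3 each). Without it the difference was -0.19 (adjusted p = 0.46). The call was also lost with loess offsets (adjusted p = 0.093) and without ASO2 replicate 1, ASO2 replicate 3, ASO10 replicate 1 or ASO10 replicate 3 (adjusted p 0.095 to 0.21).

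The sum of GFRA1, the GDNF co-receptor, passed the test in no comparison. Its 8 regions summed to 21.0 ± 1.70 CPM in NCA, 22.4 ± 0.86 with ASO2 and 21.0 ± 3.34  with ASO10 (SD, n = 3 each), and the groups overlapped. The region nearest to an end, chr10:116273321-116273523, lay 1.28 kb from the annotated start at 1.52, 0.99 and 0.91 CPM in the 3 groups. The strongest, chr10:116053569-116054298, lay 2.99 kb beyond the other end at 5.96, 7.80 and 6.48 CPM. A flank region at chr10:116014997-116015824 held 4.80, 4.51 and 5.47 CPM under ASO2 and 1.03, 2.00 and 4.07 under ASO10. Its log2 difference was 1.07 ± 0.35 (SE, edgeR adjusted p = 0.060), and it passed with limma-voom (adjusted p = 0.048), with only the 2 groups in the fit (0.049) and without ASO10 replicate 3 (0.010). Over the alternatives the adjusted p ran from 0.010 to 0.43.

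NTRK2, the BDNF receptor, had the lowest accessibility per kb outside gene ends, at 3.93 CPM per kb in NCA, 3.62 under ASO2 and 3.32 under ASO10. Its 20 other regions summed to 30.0, 35.4 and 27.1 CPM in NCA, 31.1, 22.7 and 31.1 under ASO2, and 28.7, 28.2 and 21.1 under ASO10. The groups overlapped. The log2 differences from NCA were -0.12 ± 0.13 for ASO2 (adjusted p = 0.62) and -0.24 ± 0.13 for ASO10 (adjusted p = 0.24). The region of smallest p under ASO2, chr9:84653435-84653950, held 11, 29 and 19 counts in NCA and 4, 9 and 16 under ASO2, so its groups overlapped (adjusted p = 0.21). Under ASO10 it was chr9:84730394-84730683, with 12, 13 and 22 counts in NCA and 4, 11 and 0 under ASO10 (adjusted p = 0.32). These are low counts, and 8 of the 20 regions were too low to test.

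NTRK3, the neurotrophin-3 receptor, had the most regions, and its sum passed the test in no comparison. It held 64.3, 72.7 and 70.1 CPM in NCA, 66.4, 64.0 and 72.4 under ASO2, and 69.7, 67.4 and 64.8 under ASO10. The log2 differences were -0.03 ± 0.08 and -0.04 ± 0.08 (SE, adjusted p = 0.89 and 0.84). Its strongest region, chr15:87877176-87877908 in the gene span, was at 12.7 ± 2.13, 12.9 ± 0.63 and 10.5 ± 3.33 CPM (SD, n = 3 each). No region reached an end; the nearest, chr15:87860993-87861215, lay 1.35 kb inside the gene at 0.69, 0.62 and 1.20 CPM and was too low to test. A region of the gene span 17.65 kb from the annotated start, chr15:88238834-88239352, held 3.02, 2.96 and 3.33 CPM in NCA, 3.57, 3.36 and 2.60 under ASO2, and 6.65, 5.89 and 5.09 under ASO10. All ASO10 libraries lay above all others. Over all tested regions, 8.51% lay wholly above NCA under ASO10. The NTRK3 region was named for the smallest p at this gene in both comparisons that include ASO10, a choice that favours such separation. Its estimates were 0.92 ± 0.32 for ASO10 against NCA (adjusted p = 0.16) and -0.90 ± 0.32 for ASO2 against ASO10 (adjusted p = 0.093, and 0.045 with only these 2 groups in the fit). Over the alternatives of ASO2 against ASO10 the adjusted p ran from 0.045 to 0.33.

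NGFR, the p75 neurotrophin receptor, held a region that pointed upward. It lies in the gene span at chr17:49496263-49496898, 1.29 kb from the lower-coordinate end. It held 1.13, 1.72 and 3.11 CPM in NCA, 3.16, 3.88 and 4.84 under ASO2, and 3.78, 4.22 and 4.71 under ASO10. Every ASO library was above every NCA library, with log2 estimates of 0.99 ± 0.37 (SE, adjusted p = 0.098) and 1.07 ± 0.37 (adjusted p = 0.15), neither past the threshold. This region was named for the smallest p at NGFR in both comparisons with NCA, a choice that favours such separation. Over all tested regions, 11.9% lay wholly above NCA under ASO2 and 8.51% under ASO10. Both comparisons use the same NCA libraries. Without NCA replicate 3 the ASO2 estimate was 1.48 (adjusted p = 0.028, the lowest over its alternatives, which reached 0.41). The strongest other region, chr17:49555706-49556548, overlaps the non-coding gene NGFR-AS1. It held 6.60 ± 1.42 CPM in NCA, 4.39 ± 0.70 with ASO2 and 5.76 ± 0.28  with ASO10 (SD, n = 3 each), and its ASO2 estimate of -0.57 did not pass (adjusted p = 0.24). The NGFR sum outside the ends was 18.2 ± 1.54, 17.5 ± 4.93 and 18.0 ± 1.46 CPM, with overlapping groups.

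No gene-end sum of a member was called in any comparison. Over the 13802 protein-coding genes whose gene-end sum was tested, 0.203% were called for ASO2 against NCA, 4.86% for ASO10 against NCA and 4.96% for ASO2 against ASO10, the last mostly lower (4.48%). At an unadjusted p under 0.05, edgeR counted 0, 2 and 1 of the 5 member gene-end regions, beside 10.6%, 19.2% and 22.6% of all gene-end sums. DESeq2 and limma-voom each called none either, with 0, 1 and 1 at that level. The RET gene-end region, chr10:43075683-43077389, held 14.6, 18.0 and 20.8 CPM in NCA, 16.1, 16.7 and 15.1 under ASO2, and 17.7, 22.7 and 18.2 under ASO10. Both ASO groups overlapped NCA, and the ASO2 libraries lay below the ASO10 libraries (-0.30 ± 0.15, SE, adjusted p = 0.23). The RET difference outside the ends therefore stood beside gene-end estimates of -0.17 ± 0.16 for ASO2 and 0.13 ± 0.15 for ASO10. The difference between the classes was not tested.

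At the other gene ends the pattern varied by gene. The NGFR gene-end region, chr17:49494241-49495360, held 3.90, 6.16 and 7.87 CPM in NCA, 5.76, 5.87 and 4.39 under ASO2, and 9.28, 6.67 and 8.53 under ASO10. Its ASO2 libraries lay below its ASO10 libraries, with a log2 difference of -0.62 ± 0.24 (SE, edgeR adjusted p = 0.10). The GFRA2 gene-end region, chr8:21812078-21812466, held 3.78, 4.80 and 5.10 CPM in NCA, 5.08, 2.94 and 3.59 under ASO2, and 3.09, 2.67 and 2.42 under ASO10. All ASO10 libraries lay below NCA (-0.74 ± 0.35, adjusted p = 0.22). The GFRA3 gene-end region, chr5:138275319-138275916, was at 9.22 ± 2.90, 6.83 ± 0.86 and 6.63 ± 2.06 CPM, and that of NTRK2, chr9:84668131-84668914, at 6.84 ± 2.46, 6.16 ± 1.75 and 8.24 ± 2.23 (SD, n = 3 each). Groups overlapped at both. Estimates against NCA lay between -0.43 and -0.17 for ASO2, and between -0.74 and 0.44 for ASO10.

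**Figure D5:**
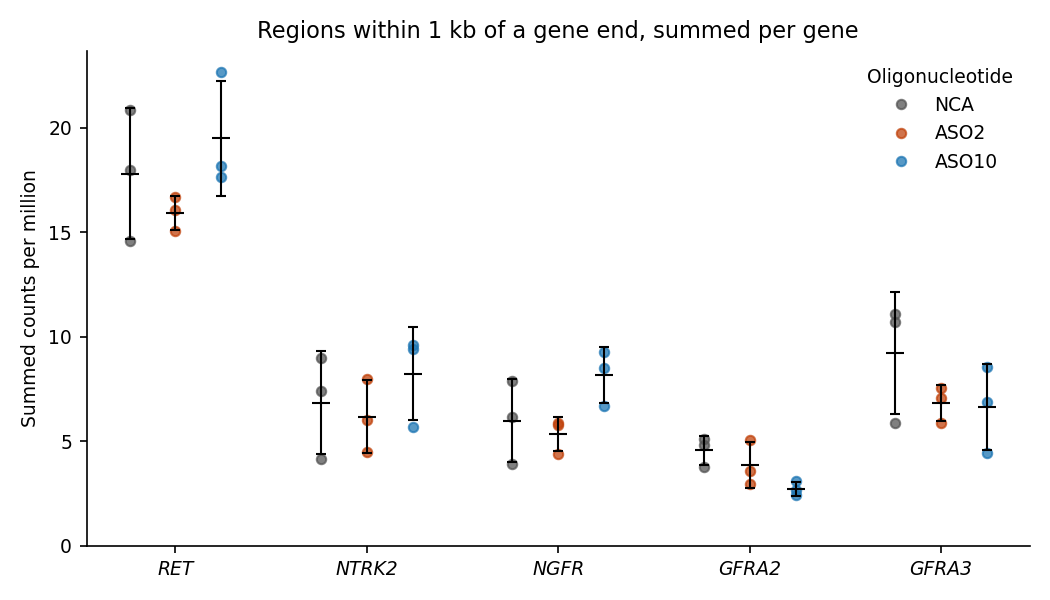
Summed CPM of regions within 1 kb of a gene end (y axis, linear from 0) for the 5 genes that have one; points are libraries, bars the mean and SD of 3. No difference between groups passed the test at any gene. The ASO10 points of GFRA2 lie below its NCA points, and the ASO2 points of RET and NGFR lie below their ASO10 points. The groups otherwise overlap.

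A further 50 genes of these pathways were counted for comparison, of which 36 had a gene-end region and 49 had other regions. At gene ends, 1 rose under ASO2 (ETV1, a transcription factor downstream of receptor kinases, 1.34 ± 0.34, SE, edgeR adjusted p = 0.049) and 5 rose under ASO10. Over all gene-end sums 0.203% and 4.86% were called in these comparisons. Of all gene-end calls under ASO10, 93.9% were higher, so a rise there was not particular to these pathways. The ETV1 call was lost with DESeq2 and with limma-voom, which each called 0 of the 36 for ASO2 against NCA. The 5 under ASO10 were GDNF, the RET ligand, KIDINS220, a scaffold of Trk receptors, GRB2, an adaptor, and the activity-induced genes EGR1 and ARC. GDNF rose from 15.4, 15.0 and 19.0 CPM in NCA to 23.4, 22.6 and 24.4 under ASO10 (0.51 ± 0.15, adjusted p = 0.021). Away from its ends the GDNF sum pointed the other way under ASO10, at -0.29 (edgeR adjusted p = 0.32). DESeq2 did not call GRB2 under ASO10, and limma-voom did not call ARC. EGR1 was the 1 gene called between the oligonucleotides (4.96% of all gene-end sums were), lower under ASO2, and DESeq2 did not call it. With loess offsets, 1 gene-end sum stayed higher under ASO10 (KIDINS220), 1 became lower (GAB1), and neither GDNF nor EGR1 passed. The 36 genes had a median of 0.14 under ASO10, compared with 0.10 over all gene-end sums, and 0.03 with loess offsets, compared with 0.0024.

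Away from gene ends, 4 of the 49 pathway genes were called for ASO2 against NCA, 6 for ASO10 against NCA and 10 for ASO2 against ASO10. Over all such sums the shares were 8.23%, 9.88% and 16.8%, so the numbers called were near the background and are given as a description. By list, ASO2 against NCA called 0 of 8 ligands, 1 of 9 other receptors, 2 of 18 adaptors and kinases and 1 of 14 feedback and target genes. DOK6, an adaptor that binds RET, went from 10.8, 8.75 and 12.2 CPM in NCA to 18.3, 23.3 and 20.4 under ASO2, and stayed at 9.28, 10.1 and 12.0 under ASO10. The ASO2 rise was 0.96 ± 0.18 (SE, adjusted p = 1.4e-05), and ASO2 also exceeded ASO10 by 0.99 ± 0.18 (adjusted p = 1.2e-05). The DOK6 gene-end sum did not share this, at -0.03 (edgeR adjusted p = 0.97) against NCA and -0.31 (adjusted p = 0.27) against ASO10. SORCS2, a sortilin-family co-receptor that pairs with NGFR, fell from 128.1 to 103.7 CPM under ASO2 (-0.31 ± 0.07, adjusted p = 0.00066). GRB10, an adaptor of receptor tyrosine kinases, fell under both, by 0.24 under ASO2 and 0.31 under ASO10 (adjusted p = 0.037 and 0.0036), and DESeq2 did not call it under ASO2. The ligand gene PSPN had no gene-end region. The sum of the other regions in its window rose from 126.7 to 157.0 CPM under ASO10 (0.31 ± 0.07, adjusted p = 0.00038). For artemin's gene ARTN this sum was lower under ASO2 than under ASO10 (-0.35 ± 0.09, adjusted p = 0.0018). The ARTN gene-end sum differed by -0.16 in that comparison (edgeR adjusted p = 0.83). Whether regions at the ends of other genes carried such differences was not tested for the pathway genes. The calls named here for DOK6, SORCS2, PSPN, ARTN against ASO10 and GRB10 under ASO10 kept their side of the threshold with loess offsets, in which 1 gene rose and 3 fell under ASO10. The median over the list was -0.04 under ASO2 and 0.02 under ASO10, beside -0.03 and 0.03 over all sums.

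Over the 9 libraries, the window sums most like that of RET were those of RPS26 (Pearson r = 0.955), BMS1 (0.952) and SLC25A15 (0.950) among 17923 candidate genes, on log2(CPM + 1). BMS1 also lies on chromosome 10, and the median r over the candidates was 0.14. The closest gene was SORCS3 for NTRK2 (0.919), GPIHBP1 for NTRK3 (0.916), ZNF804B for GFRA1 (0.930), GHRHR for GFRA2 (0.972) and FADS1 for GFRA3 (0.965). For NGFR it was LOC124903571 (0.915). These values describe the same 9 libraries, which share group and depth, and the highest of so many candidates is high by construction.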

How the data were processed

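ATAC-seq was analysed in 9 libraries, grouped by the oligonucleotide named in the labels. The authors deposited 1 table of whole-number counts per region, with no normalization visible in the values. The submitters' processing notes name hg38 (GRCh38), FastQC, Bowtie2 2.2.6, SAMtools, MACS2 2.1.2 and DESeq2 1.42.0, with no roles. How peaks were merged, how Tn5 cut sites were shifted and whether reads or fragments were counted are not given in the sources used here. The labels give the molecule as RNA, but their protocol describes tagmented genomic DNA, which was followed. Coordinates are as in the region names, and it is not stated whether starts count from 0 or 1. Gene spans came from a RefSeq table (GRCh38), which carries no exons. Strand came from the promoter table for 5 members, and gene ends of both kinds were therefore used.

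The member genes, gene lists and rules were chosen with earlier results of these data known. Counts were tested with edgeR 4.0.16 (R 4.3.3, quasi-likelihood, robust, TMM, filterByExpr by group, all 9 libraries), with Benjamini-Hochberg adjustment over all 119417 tested regions and a threshold of 0.05. Gene sums of gene-end regions (13802 genes) and of other regions (19122 genes) were tested in the same way with the library sizes of the region table. A region in several windows counts for each gene. Named regions were, for each member, the strongest gene-end and other region, every called region, and the region of smallest p per comparison. No library copied another of its group (chi-square over its degrees of freedom, 2.93 to 3.65). The common biological coefficient of variation was 23.5% for regions, 10.5% for gene-end sums and 6.87% for other sums. On counts simulated for ASO2 against NCA, 32.0% of 200 regions changed by 1 on the log2 scale were recovered among 119417 regions, with 4 false calls among 68. Of 200 sums of other regions among 19122 genes, 95.5% were recovered at a change of 1 and 76.5% at 0.5. These shares belong to simulations with fewer changed features than were called in the data. Replicate numbers did not pair the libraries. Alternatives were DESeq2 1.42.0, limma-voom (limma 3.58.1), RLE factors, total counts, loess offsets (span 0.3), a replicate block, only the groups compared, no filter, a minimum of 10 counts per library, other windows and leaving out each library. Other ways to sum regions were added after seeing the data. Python 3.11.15 served for tables (pandas 2.3.3) and figures (matplotlib 3.10.9). Sequence of the called regions was not used here.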

Additional observations from a re-analysis of the deposited data

Results flagged for a closer look

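The sum of GFRA3 regions outside gene ends differed between the 2 oligonucleotides against NESPR in a direct test of that difference. The log2 difference of ASO2 against ASO10 was -0.29 (edgeR adjusted p = 0.035), with all 3 ASO2 libraries below all 3 ASO10 libraries. Over all such sums of protein-coding genes, 16.8% were called in this comparison (11.9% lower) and the median was -0.07. A call here was therefore common and not particular to GFRA3. Relative to NCA, ASO2 was at 87.3% and ASO10 at 107.3%. The value was -0.19 (adjusted p = 0.46) without the region at the end of CDC23 and -0.25 (adjusted p = 0.093) with loess offsets, within a range of 0.016 to 0.46 over its alternatives. Its cause was not tested.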

How the results depend on the processing

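Counts of 2 or fewer members move easily, and the cause of each change was not tested unless the setting itself removes regions or libraries. Member regions called for ASO2 against NCA were 2. They were 1 over the gene span only, 4 with a 100 kb flank, 0 above an absolute log2 fold change of 1, and 0 to 2 when 1 library was left out. For ASO10 against NCA they went from 0 to 1 with a 100 kb flank and to 1 with loess offsets. For ASO2 against ASO10 they went from 0 to 1 with a 100 kb flank, 1 with limma-voom, 2 with only the 2 groups compared, and 0 to 1 with 1 library left out. Member gene sums called for ASO2 against NCA were 2, and 1 without the strongest region of each gene, 1 over the gene span, 1 over the flanks, 0 without the 2 regions called on their own, and 0 to 2 with 1 library left out. For ASO10 against NCA they were 1, and 2 with total counts, 2 with loess offsets, 2 with only the 2 groups compared, 0 over the gene span, 0 without the 2 called regions, and 0 to 2 with 1 library left out. For ASO2 against ASO10 they were 1, and 0 with loess offsets, 0 without ends of other genes, 0 without the strongest regions, 0 over the gene span, and 0 to 1 with 1 library left out. Gene-end regions of the members numbered 5 within 1 kb, 3 within 500 bases and 11 within 2 kb.

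The RET sum stayed lower under ASO2 in all 23 alternatives (-0.37 to -0.20) and passed in 19, and under ASO10 it passed in 8 of 23. Not all alternatives are distinct. At RET and at GFRA3, leaving out ends of other genes and leaving out the strongest region gave the same sum. At GFRA2, leaving out the strongest region and leaving out the called regions did. Such sums enter these tallies more than once. GFRA2 stayed lower in all 23 in both comparisons and passed in 18 and 13. GFRA3 for ASO2 against ASO10 passed in 15 of 23 and reversed over the gene span only (1.32, adjusted p = 0.38), which leaves 1 region. Among 114 single values under their alternatives, 87 estimates that passed in neither setting changed sign. Loess offsets moved the median of all gene-end sums for ASO2 against ASO10 from -0.15 to -0.0056. They moved the share of called genes that were higher from 9.50% to 75.5% at gene ends and from 29.0% to 63.1% for other sums. For ASO10 against NCA that share went from 93.9% to 42.3% and from 83.8% to 50.3%, and over regions from 80.6% to 59.3%. With total counts it was 35.2% in place of 64.3% for gene ends of ASO2 against NCA, and 72.9% in place of 83.8% for other sums of ASO10 against NCA. DESeq2 gave 83.3% for gene ends of ASO2 against NCA. RET and GFRA2 stayed lower under each of these scalings.

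Libraries with the same replicate number did not deviate together (correlations of -0.045 to 0.016 over 9 pairs). With a replicate block, the counts of member regions called were 2, 0 and 0 and of gene sums 2, 1 and 1 in the 3 comparisons, as without it. On simulated counts, a log2 change of 1 was recovered in 32.0% of the changed regions. Only 200 regions were changed there and 68 were called, compared with 6691 called for ASO2 against NCA in the data. The adjusted threshold therefore fell elsewhere, and the 32.0% is not the recovery in the data. An uncalled region may still differ.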
